A study of Mus musculus with 15 samples.

Results

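Genes that make, clear, carry and sense retinoic acid were examined in NMuMG cells, a mouse mammary gland epithelial line, and in lines derived from it. The 9 genes were Rdh10, Dhrs3, Aldh1a1, Aldh1a2, Aldh1a3, Cyp26b1, Crabp2, Rarb and Rarg, taken by symbol. The set was chosen by the CPM of Cyp26b1, which were lower in LIFR KO cells than in shPCBP1 cells, with the rest taken as genes of its pathway, so values from that comparison are given as a description and without a test. Of the 9 genes, 7 were found among the 13893 genes of dataset 1 and 8 among the 15023 genes of dataset 2. Aldh1a2 was found in dataset 2 only, and Rarb was not analysed here.

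Dataset 2 compared untreated wild type NMuMG cells (2 samples, which the study's text calls shSCR, cells with a scrambled shRNA) with NMuMG cells carrying an shRNA against PCBP1 (shPCBP1, 2 samples). Dataset 1 held 4 shPCBP1 lines, FAM3C KO clones (3 lines), LIFR KO clones (3 lines) and a single line with both knockouts (FAM3C/LIFR double KO). All lines of dataset 1 carried the PCBP1 shRNA, and the knockouts were made in shPCBP1 cells with CRISPR-Cas9. The shPCBP1 lines comprised an unaltered one and CT clones 1 to 3, which were treated with Cas9 and no guide against a gene. Each line of dataset 1 gave 1 RNA sample, so differences between clones and between their preparations cannot be told apart. Nothing states that the samples of dataset 2 came from separate cultures, so p-values measure only the spread between these samples, which may be technical. The deposited values were CPM (the reads of a gene scaled to the size of the library), normalized in each dataset separately.

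Retinoic acid is made from retinol in 2 oxidation steps. RDH10 oxidizes retinol to retinaldehyde, DHRS3 catalyzes the reverse reaction, and the dehydrogenases ALDH1A1, ALDH1A2 and ALDH1A3 oxidize retinaldehyde to retinoic acid. CYP26 enzymes such as CYP26B1 hydroxylate retinoic acid and so clear it from the cell. CRABP2 delivers it to the nuclear receptors RARA, RARB and RARG, which bind DNA together with an RXR partner at repeats of a short half-site. In many tissues Cyp26b1, Dhrs3 and Rarb are themselves induced by retinoic acid, and mammary epithelium responds to it with growth arrest and differentiation.

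Sequence upstream of Cyp26b1 is shown because the values turn on this gene, and that of Dhrs3 because its transcript moved against Cyp26b1 in dataset 2 and in LIFR KO. A short stretch upstream of Rarb is shown as an example of the repeat that retinoic acid receptors bind. Sequences are from RefSeq (GRCm38.p6), run 5′ to 3′ on the strand of the gene and hold no annotated exon base for the first 2 genes. Capitals mark TATAAA, which Cyp26b1 has and the Dhrs3 stretch does not, and for Rarb the repeat of 2 half-sites 5 bases apart.
Cyp26b1: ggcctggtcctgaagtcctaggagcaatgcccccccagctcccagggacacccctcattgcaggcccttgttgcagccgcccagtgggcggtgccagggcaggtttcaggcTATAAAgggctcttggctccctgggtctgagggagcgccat
Dhrs3: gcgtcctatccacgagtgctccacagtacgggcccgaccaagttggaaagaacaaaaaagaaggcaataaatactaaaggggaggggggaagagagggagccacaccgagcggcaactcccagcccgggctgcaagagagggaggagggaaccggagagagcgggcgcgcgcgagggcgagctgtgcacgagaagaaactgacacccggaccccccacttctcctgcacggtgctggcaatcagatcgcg
Rarb: gggaagGGTTCACCGAAAGTTCActcgcat

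These stretches lie at chr6:84593909-84594060 (minus strand) for Cyp26b1, chr4:144892577-144892826 (plus strand) for Dhrs3 and chr14:16575506-16575535 (minus strand) for Rarb. The half-site searched was AGGTCA or its variant spelled AGTTCA, and likewise the form GGGTCA with its variant spelled GGTTCA, on either strand, in windows of 300 bases around the starts of genes. A pair of half-sites in the same orientation 5 bases apart was present in 32 of 32851 windows (0.0974%), and among the retinoic acid genes in that of Rarb, 53 bases upstream of its start. The windows of Cyp26b1, Aldh1a1 (2 starts), Aldh1a2, Dhrs3 (3 starts) and Rarg (2 starts) held no such pair, and none at a spacing of 2 bases, which 0.268% of all windows held. Single half-sites, which 43.7% of all windows held and which also make up the pairs, were present in 1 of the windows of Rarg, 1 of Aldh1a1 and in that of Rarb. The STAT motif TTCNNNGAA was present in 8.30% of all windows and, among these genes, in that of Rarb. TATAAA, present in 13.6% of all windows, began 139 bases upstream of the RefSeq start of Cyp26b1. By GENCODE the gene starts at chr6:84593908, next to the printed stretch and so nearer to this motif. A match is a description of the letters, and these windows leave out distal elements. No window for Rdh10, Aldh1a3 or Crabp2 was used.

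In dataset 1 the implied library sizes were 16031859 to 46901675 reads, and the depth behind dataset 2 is unknown. By mitochondrial mRNA and GC content, though not by size, the LIFR KO libraries 2 and 3 and the one from double KO cells stood apart. Mitochondrial transcripts took 7.16% to 8.58% of their CPM, against 3.14% to 4.06% in the other 8 libraries of dataset 1. Over 12603 genes, Spearman's correlation of GC content with the difference from the shPCBP1 mean was -0.76, -0.74 and -0.70 in them and between -0.29 and 0.24 in the others (a description, since genes are not replicates). Values after a correction for GC content are therefore given beside the log2 differences and ratios of the tested members in LIFR KO and double KO cells. They are not given for the levels of other list genes or for the order by length. The part of GC content in the differences was not tested. Of the 8 epithelial markers, 6 were in dataset 1, with a summed level of 2478 to 3183 CPM in shPCBP1, 2006 to 3038 CPM in FAM3C KO and 1226 to 2108 CPM in LIFR KO. Keratins made up most of these sums, while Cdh1 was at 292 to 346 CPM in shPCBP1 and 268 to 344 CPM in LIFR KO. Cldn7 was low throughout, at 0.187 to 0.525 CPM in shPCBP1 and under 0.5 CPM in every knockout line. In dataset 2 the 5 epithelial markers present summed to 2935 to 2988 CPM in NMuMG and 2774 to 2831 CPM in shPCBP1, mostly from keratins. Cdh1 fell from 232 and 237 CPM to 149 CPM in both shPCBP1 samples, and Ocln from 18.55 and 18.9 CPM to 8.31 and 7.82 CPM. Krt8 and Krt19 were lower as well, and Krt18 was higher. The 4 fibroblast or mesenchymal markers summed to 475 to 497 and 1090 to 1123 CPM, nearly all of it Vim. Col1a1 and Pdgfrb rose and Pdgfra fell, each at under 1 CPM. The 5 mesenchymal markers of dataset 1 summed to 1297 to 1445 CPM in shPCBP1, 1309 to 1439 CPM in FAM3C KO and 847 to 1212 CPM in LIFR KO, again nearly all Vim. Immune markers summed to at most 10.8 CPM in dataset 1, from Cd68 alone, and to at most 1.69 CPM in dataset 2, endothelial markers to at most 2.00 CPM, and the adipocyte marker Adipoq was at most 0.019 CPM. The part of these differences in the results below was not tested.

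The targeted genes were checked first. Pcbp1 was at 287 and 312 CPM in the NMuMG samples of dataset 2 and at 14.1 and 14.2 CPM in shPCBP1. In dataset 1 it was at 32.9 to 37.1 CPM in the shPCBP1 lines and 33.6 to 36.0 CPM in FAM3C KO. LIFR KO clones 1 to 3 had Pcbp1 at 39.5, 22.5 and 19.9 CPM, and the double KO line at 20.6 CPM. The lower values were those of the libraries with the GC shift, and their cause was not tested. Fam3c was at 26.4, 33.9 and 42.9 CPM in FAM3C KO clones 1 to 3, below the 47.0 to 59.4 CPM of the shPCBP1 lines. In clones 1 to 3 of LIFR KO the Lifr transcript was at 34.9, 29.3 and 14.6 CPM, and clones 1 and 2 lay within the 25.8 to 40.2 CPM of the shPCBP1 lines. Per the methods, pairs of guides cut out a stretch of coding sequence and the clones were screened by PCR and immunoblot, so the transcript level does not check the knockout. Lifr was at 13.5, 10.5 and 19.2 CPM in FAM3C KO and at 4.36 CPM in the double KO.

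**Figure D1:**
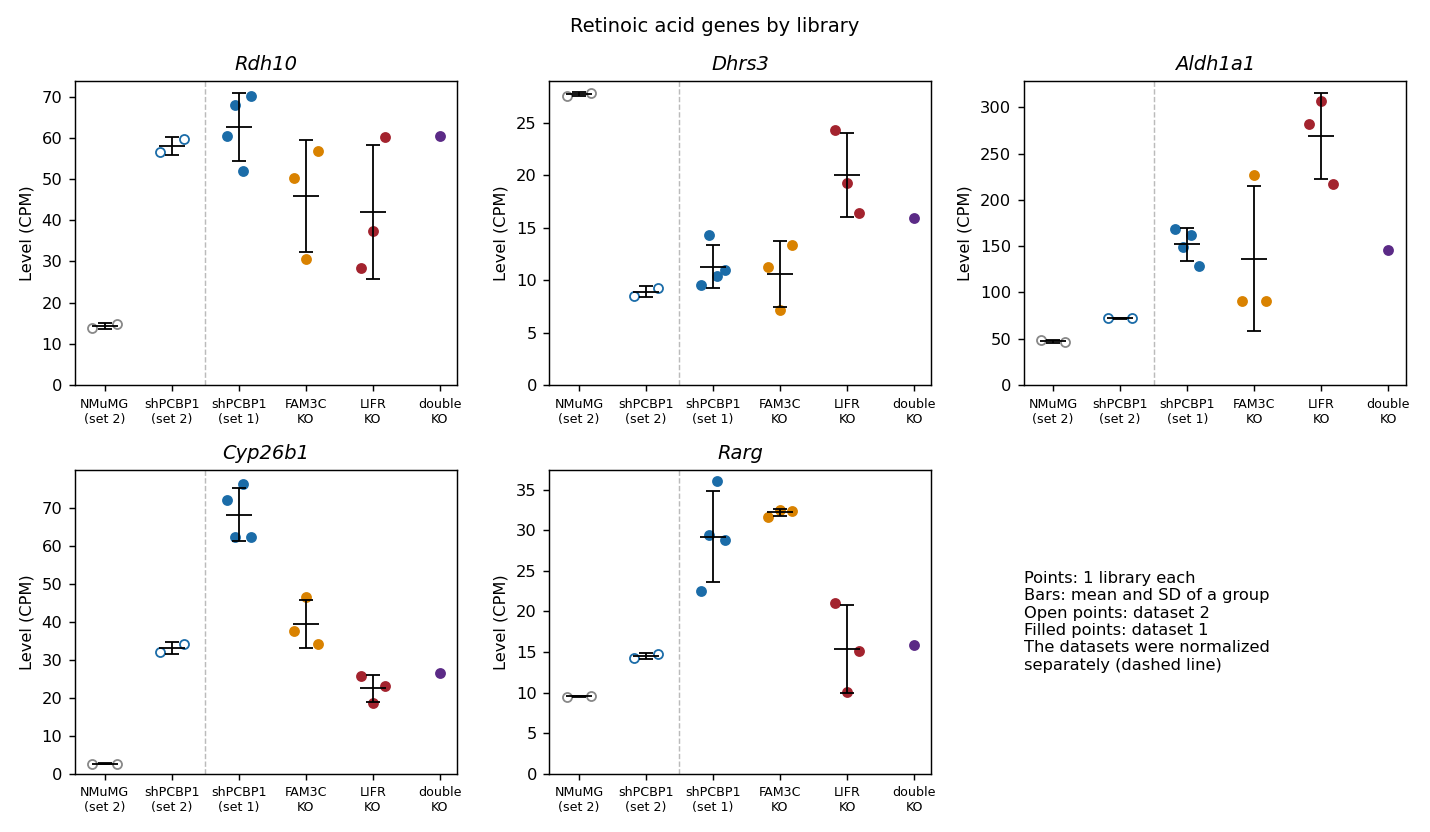
Level in CPM (vertical axes, from 0) of Rdh10, Dhrs3, Aldh1a1, Cyp26b1 and Rarg in each library of dataset 2 (open points, left of the dashed line) and dataset 1 (filled points), with the mean and SD of each group of 2 or more. Cyp26b1 rose from about 2.57 to 33.1 CPM on average in dataset 2, and in dataset 1 its FAM3C KO and LIFR KO clones were all below the shPCBP1 lines.

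The comparison of shPCBP1 with NMuMG cells in dataset 2 asked how loss of PCBP1 moved the pathway. Transcripts of the enzyme that starts synthesis and of the enzyme that clears retinoic acid both rose. The transcript of the enzyme that returns retinaldehyde to retinol fell. Enzyme levels, enzyme activity and retinoic acid itself were not measured in these data. Rdh10 was 4.03-fold and Cyp26b1 12.4-fold higher in shPCBP1 on the log2(CPM + 0.1) scale, and Dhrs3 was 3.10-fold lower. Aldh1a1 and Rarg rose by smaller amounts, 1.53-fold and 1.52-fold.

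Rdh10 (ENSMUSG00000025921, chr1:16105774-16133734 in GRCm38) was at 13.8 and 14.9 CPM in NMuMG and at 56.5 and 59.6 CPM in shPCBP1. Dhrs3 (ENSMUSG00000066026, chr4:144892827-144928209) was at 27.6 and 27.9 CPM in NMuMG and at 8.51 and 9.24 CPM in shPCBP1. Rdh10 and Dhrs3 thus moved in opposite directions. The log2 fold change was 2.01 (SE 0.0467, limma adjusted p = 2.72e-11) for Rdh10 and -1.63 (SE 0.0557, limma adjusted p = 4.74e-10) for Dhrs3. Rdh10 lay at the percentile 96.1 and Dhrs3 at the percentile 3.1 of the log2 changes of all 11384 genes tested.

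Aldh1a1 (ENSMUSG00000053279, chr19:20492715-20643465), the retinaldehyde dehydrogenase with the highest level here, was at 48.2 and 46.3 CPM in NMuMG and at 72.5 and 71.9 CPM in shPCBP1. Its log2 fold change was 0.61 (SE 0.0306, limma adjusted p = 1.03e-08). The other dehydrogenases were near the floor. Aldh1a3 (ENSMUSG00000015134, chr7:66390890-66427517) was at 0.159 and 0.151 CPM in NMuMG and at 0.430 and 0.517 CPM in shPCBP1. Aldh1a2 (ENSMUSG00000013584, chr9:71215789-71296243) was listed at the value that stands for no reads in both NMuMG samples and at 0.018 and 0.019 CPM in shPCBP1. Both genes were under the mean of 0.5 CPM required for a test. Aldh1a7, a rodent gene close in sequence to Aldh1a1 with which it can share reads, was at 0.549 and 0.641 CPM in NMuMG and at 0.287 and 0.277 CPM in shPCBP1, far below Aldh1a1.

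Cyp26b1 (ENSMUSG00000063415, chr6:84571414-84593908) was at 2.67 and 2.47 CPM in NMuMG and at 32.0 and 34.1 CPM in shPCBP1. Its log2 fold change of 3.63 (SE 0.0722, limma adjusted p = 9.47e-12) was above that of 98.0% of the genes tested. Of the other CYP26 genes, Cyp26a1 was at 0.195 and 0.038 CPM in NMuMG and at the value for no reads in both shPCBP1 samples. Crabp2 (ENSMUSG00000004885, chr3:87948666-87953376) was at 0.089 and 0.038 CPM in NMuMG and at the value for no reads in shPCBP1, which is too low to compare. Rarg (ENSMUSG00000001288, chr15:102234938-102257517) was at 9.49 and 9.58 CPM in NMuMG and at 14.3 and 14.8 CPM in shPCBP1. The log2 fold change of Rarg was 0.60 (SE 0.0588, limma adjusted p = 2.80e-06).

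All 5 genes that reached a mean of 0.5 CPM passed an adjusted p of 0.07, the threshold used in the study, 4 of them higher and 1 lower. That share is close to the background, since 80.1% of all genes tested passed it, 42.1% higher and 38.0% lower. With a fold change of at least 1.5 required as well, 31.1% of all genes passed, and the 5 genes did too. Aldh1a1 and Rarg were just inside that limit. No exact permutation test of 2 samples against 2 can go below p = 0.333, so the calls rest on the spread that limma pools over all genes.

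The order of the genes changed with the knockdown. Divided by the length of the longest transcript, NMuMG cells held 20.04 CPM per kb of Aldh1a1, 11.9 of Dhrs3, 3.996 of Rdh10, 3.23 of Rarg and 0.572 of Cyp26b1. In shPCBP1 cells the order was Aldh1a1 (30.6 CPM per kb), Rdh10 (16.2), Cyp26b1 (7.36), Rarg (4.92) and Dhrs3 (3.798). Neighbours in these orders did not overlap between samples. Dhrs3 thus went from the second to the last place and Cyp26b1 from the last to the third.

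A list of 60 other genes covered the pathway (44 genes of retinol handling, transport, receptors and cofactors) and genes known to respond to retinoic acid in other cells (16 genes). In dataset 2, 45 of the 60 were present and 30 could be tested. Of these 30, 26 passed the threshold, 11 higher and 15 lower, against the 80.1% of all genes. The median log2 change was -0.14 over the 23 pathway genes tested and 0.95 over the 7 response genes, against 0.02 over all genes tested.

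Stra6, the cell surface receptor that takes up retinol from its carrier in blood, was at 3.97 and 3.34 CPM in NMuMG and at 22.5 and 20.7 CPM in shPCBP1. It rose by 2.54 on the log2 scale (SE 0.089, limma adjusted p = 5.98e-10). Ttr, the partner of the retinol carrier RBP4 in blood, was at 2.58 CPM in both NMuMG samples and at 0.0539 and 0.0371 CPM in shPCBP1 (log2 fold change -4.21, SE 0.173, limma adjusted p = 2.07e-09). Uptake and carrier genes thus moved apart, and Rbp4 itself went from 68.7 and 66.8 CPM to 56.5 and 53.7 CPM (log2 fold change -0.30, SE 0.0327, limma adjusted p = 7.90e-06).

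Among the response genes, Hoxa5 was at 0.071 and 0.019 CPM in NMuMG and at 1.95 and 1.89 CPM in shPCBP1. Its log2 fold change of 3.82 (SE 0.21, limma adjusted p = 2.19e-08) depends on the pseudocount, since the NMuMG values are near the floor. Zfp703, which encodes a zinc finger protein of mammary epithelium, was at 14.4 and 16.1 CPM in NMuMG and at 40.6 and 44.8 CPM in shPCBP1 (log2 fold change 1.48, SE 0.0602, limma adjusted p = 1.89e-09). Meis1 rose as well, and Hoxb4, Meis2 and Tgm2 fell, so the response genes moved in both directions.

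Of the other receptors, Rara rose from 23.5 and 21.7 CPM to 34.4 and 35.4 CPM (log2 fold change 0.63, SE 0.045, limma adjusted p = 2.12e-07). The partner Rxra rose from 20.1 and 19.95 CPM to 24.6 and 25.2 CPM (log2 fold change 0.31, SE 0.0419, limma adjusted p = 4.28e-05). Rxrb fell from 25.7 and 25.6 CPM to 22.8 and 23.6 CPM (log2 fold change -0.14, SE 0.0407, limma adjusted p = 0.00755). Fabp5, a fatty acid binding protein that can carry retinoic acid to PPARD, was at 24.6 and 22.5 CPM in NMuMG and at 21.4 and 19.8 CPM in shPCBP1 (log2 fold change -0.19, SE 0.0556, limma adjusted p = 0.0082). Crabp1 was not analysed here. Fabp5 and Rbp4 thus had higher levels than Crabp2.

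**Figure D2:**
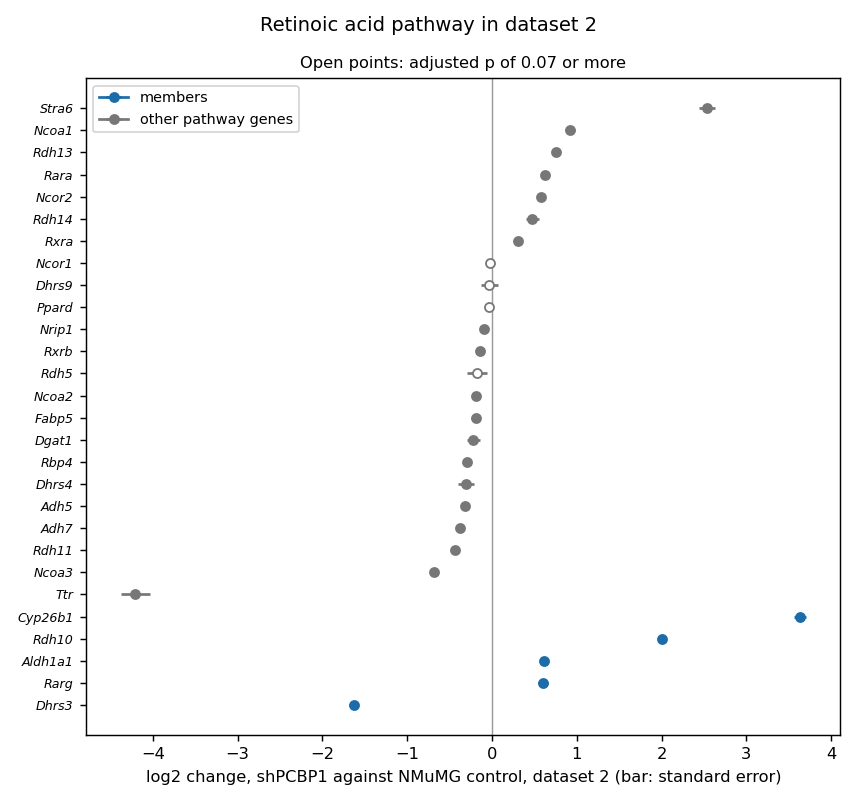
Log2 change in shPCBP1 against NMuMG cells (horizontal axis, with its standard error) of the 5 genes of the set and the 23 other pathway genes tested in dataset 2, filled where the limma adjusted p was under 0.07. Cyp26b1 (3.63) and Stra6 (2.54) stood at the high end and Ttr (-4.21) at the low end, and 4 pathway genes did not pass.

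The comparison of FAM3C KO with shPCBP1 cells in dataset 1 asked what loss of the secreted factor FAM3C did once PCBP1 was depleted. Cyp26b1 was lower in every FAM3C KO clone, by 1.74-fold on average, but its adjusted p missed the threshold. Rdh10, Aldh1a1, Dhrs3 and Rarg did not pass either. The clones of Rdh10, Dhrs3 and Rarg overlapped with the shPCBP1 lines, and those of Aldh1a1 lay on both sides of them.

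The unaltered shPCBP1 line had Cyp26b1 at 62.4 CPM, CT clones 1 to 3 at 71.9, 62.1 and 76.3 CPM, and FAM3C KO clones 1 to 3 at 37.6, 46.5 and 34.0 CPM. The means were 68.2 ± 7.05 CPM (SD, n = 4) and 39.4 ± 6.43 CPM (SD, n = 3), and the groups did not overlap. The log2 fold change was -0.80 (SE 0.147, unadjusted p = 0.000256, limma adjusted p = 0.0745). By exact permutation, p was 0.0286 (two-sided), which is as small as 4 lines against 3 allow. Over all genes tested, 12.5% had every FAM3C KO clone below every shPCBP1 line and 10.1% had every clone above, so the separation by itself is common. The limma adjusted p was 0.0107 with both groups fitted alone, 0.0564 after GC correction and 0.0515 after median-ratio rescaling. It was 0.0702 with a pseudocount of 1 CPM, 0.0712 without a filter and 0.0992 with a filter at 1 CPM. With the replicate number as a block it was 0.202, and 0.126 with GC correction as well. When any 1 FAM3C KO or shPCBP1 line was left out, it lay between 0.105 and 0.279. The shPCBP1 lines are the same ones against which LIFR KO was compared when the gene was chosen, so the FAM3C KO values are not independent of that choice.

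Rdh10 was at 70.2, 60.5, 68.0 and 52.0 CPM in the shPCBP1 lines (the unaltered one, then CT clones 1 to 3) and at 50.4, 30.6 and 56.8 CPM in FAM3C KO clones 1 to 3 (log2 fold change -0.49, SE 0.265, limma adjusted p = 0.597). Aldh1a1 was at 128, 169, 149 and 162 CPM in the same shPCBP1 lines and at 91.0, 227 and 91.1 CPM in the clones (log2 fold change -0.29, SE 0.287, limma adjusted p = 0.852). For Aldh1a1, clones 1 and 3 were below all shPCBP1 lines and clone 2 above them all, so that the mean describes no clone. FAM3C KO clone 2 also had the lowest Rdh10 and Dhrs3 of the 7 lines and the highest Cyp26b1 of the 3 FAM3C KO clones.

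Dhrs3 was at 10.9, 9.57, 14.3 and 10.4 CPM in the shPCBP1 lines and at 11.3, 7.16 and 13.3 CPM in FAM3C KO (log2 fold change -0.12, SE 0.228, limma adjusted p = 0.935). Rarg was at 28.8, 22.5, 29.5 and 36.1 CPM in the shPCBP1 lines and at 31.6, 32.5 and 32.4 CPM in FAM3C KO (log2 fold change 0.16, SE 0.226, limma adjusted p = 0.907). For both genes the clones fell inside the shPCBP1 range, apart from Dhrs3 in clone 2, which was below it. Aldh1a3 was at 0.275 to 0.640 CPM and Crabp2 at 0.081 to 0.515 CPM in these 7 lines, too low for a test.

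None of the 5 genes passed in FAM3C KO by limma, where 0.309% of all genes tested passed. At an unadjusted p under 0.05 there was 1 of the 5, Cyp26b1, and 10.2% of all genes tested. None of the 33 other list genes tested passed either. At an unadjusted p under 0.05 there were 5 of the 33 (Rbp4, Stra6, Rdh5, Dhrs9 and Fabp5), beside the 10.2% of all genes. Rbp4 was at 143 to 207 CPM in shPCBP1, while the FAM3C KO clones had 85.0, 64.2 and 89.6 CPM, all below (log2 fold change -1.07, SE 0.35, limma adjusted p = 0.281). Stra6 was at 9.53 to 12.1 CPM in shPCBP1, while the clones had 8.37, 3.44 and 9.03 CPM, again all below (log2 fold change -0.75, SE 0.314, limma adjusted p = 0.443). The median log2 change was -0.04 over the 25 pathway genes and -0.07 over the 8 response genes, against -0.01 over all genes. Rara was at 77.0 to 90.6 CPM in shPCBP1 and 80.9 to 101 CPM in FAM3C KO, and Rxrb at 40.9 to 50.6 and 40.4 to 40.6 CPM. Rxra was at 25.6 to 31.4 CPM in shPCBP1, while the FAM3C KO clones had 32.8, 34.0 and 38.2 CPM (log2 fold change 0.29, SE 0.155, limma adjusted p = 0.59). Fabp5 was at 21.3 to 38.0 CPM in shPCBP1 and 37.5 to 43.5 CPM in FAM3C KO.

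LIFR KO cells were compared with the same shPCBP1 lines. Cyp26b1 and Rarg were lower in every LIFR KO clone than in every shPCBP1 line, and Aldh1a1 and Dhrs3 were higher. Rdh10 was lower on average, with clone 3 within the range of the shPCBP1 lines. For comparison, 13.2% of all genes tested had every LIFR KO clone below every shPCBP1 line, 3.95% had every clone above, and 6.47% passed an adjusted p of 0.07. The median log2 difference of all genes was -0.16 and moved to 0.00 after median-ratio rescaling, and the directions of the 5 genes were the same after it.

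The level of Cyp26b1 was 25.7, 18.7 and 23.2 CPM in clones 1 to 3 of LIFR KO, against 62.1 to 76.3 CPM in the shPCBP1 lines. The means were 22.5 ± 3.55 CPM (SD, n = 3) and 68.2 ± 7.05 CPM (SD, n = 4), a log2 difference of -1.60 or a 3.03-fold lower level. The clones were also below the lowest FAM3C KO clone, at 34.0 CPM. Cyp26b1 has a GC content of 56.7% over its longest transcript, above 85.0% of genes, and after GC correction the log2 difference was -1.08 and moved from -1.40, -1.86 and -1.55 to -1.34, -1.08 and -0.84 in clones 1 to 3. Clone 1, whose library did not carry the GC shift, was lower by a like amount with and without it.

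The level of Aldh1a1 was 282, 307 and 217 CPM in the same clones and 128 to 169 CPM in the shPCBP1 lines, a log2 difference of 0.81. After GC correction it was 0.82. The other genes within 5 Mb of Aldh1a1 were higher in clones 1 and 2 as well. Over 34 such genes the median log2 difference from the mean of shPCBP1 was 0.65, 0.62 and 0.09 in clones 1 to 3, where Aldh1a1 itself was at 0.90, 1.02 and 0.52. After GC correction the neighbours were at 0.73, 0.66 and -0.10 and Aldh1a1 at 0.97, 1.03 and 0.48. In clones 1 and 2 the neighbours of Aldh1a1 on chromosome 19 were thus higher together with it, and the part of that shift in its level was not tested.

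For Rarg the level was 20.97, 10.1 and 15.1 CPM in these clones and 22.5 to 36.1 CPM in the shPCBP1 lines, a log2 difference of -0.96. Its neighbours moved with it. Over 100 genes within 5 Mb on chromosome 15, the median log2 difference was -0.47, -0.95 and -0.52 in clones 1 to 3, against -0.46, -1.50 and -0.93 for Rarg. With a GC content above that of 92.5% of genes, Rarg was at -0.38, -0.59 and -0.07 after GC correction, and its neighbours at -0.39, -0.41 and 0.01. In clone 1 Rarg did not stand apart from its neighbours on either scale.

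For Dhrs3 it was 24.4, 19.3 and 16.4 CPM in these clones and 9.57 to 14.3 CPM in the shPCBP1 lines, a log2 difference of 0.82. Its 79 neighbours on chromosome 4 were at -0.02, -0.54 and -0.50, and at 0.041, -0.003 and 0.007 after GC correction. Dhrs3 was above them in each clone, and its own difference after GC correction was 1.14. Rdh10 was at 28.4, 37.4 and 60.1 CPM and differed between clones, at -1.13, -0.73 and -0.05 from the shPCBP1 mean, with 18 neighbours on chromosome 1 at -0.06, 0.04 and 0.39. After GC correction Rdh10 was at -1.08, -0.68 and -0.04 and its neighbours at 0.02, -0.01 and 0.04. The 85 neighbours of Cyp26b1 on chromosome 6 were at -0.07, -0.42 and -0.36, and between 0.00 and 0.03 after GC correction. Aldh1a3 was at 0.697, 0.291 and 0.343 CPM and Crabp2 at 0.268, 0.374 and 0.386 CPM in LIFR KO.

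**Figure D3:**
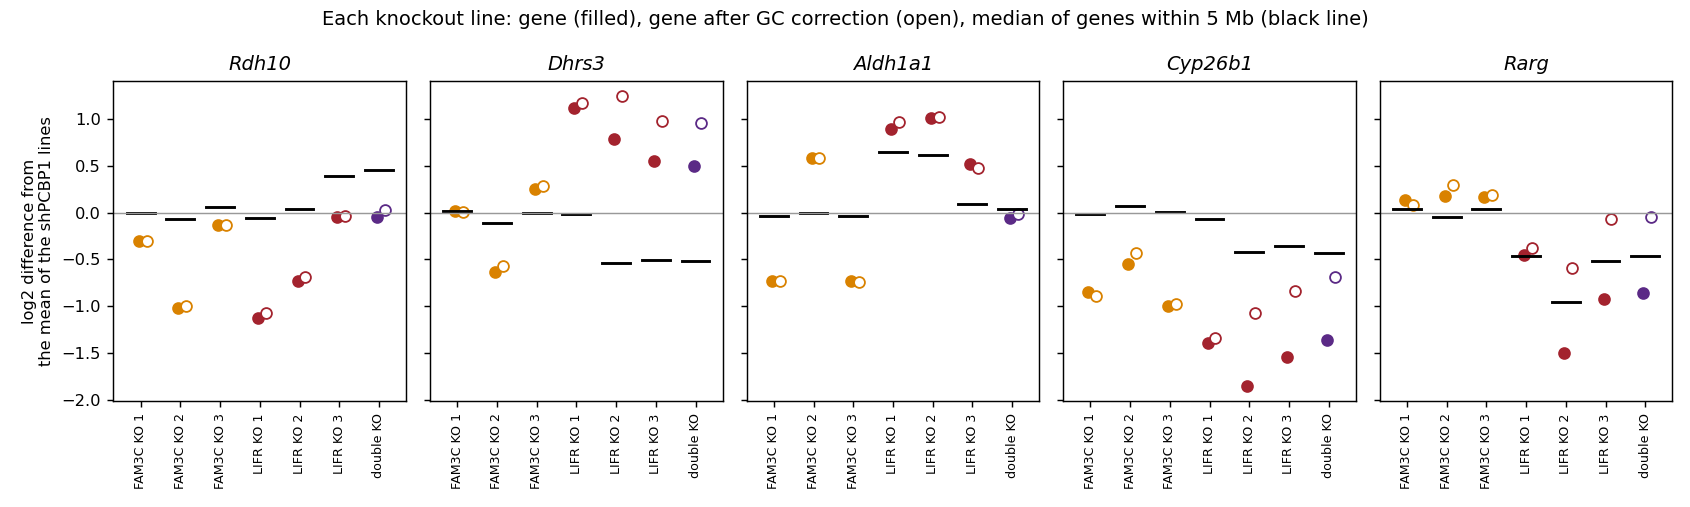
Log2 difference of each knockout line from the mean of the 4 shPCBP1 lines (vertical axis) for Rdh10, Dhrs3, Aldh1a1, Cyp26b1 and Rarg, as filled points, with the GC-corrected value as open points and the median of the tested genes within 5 Mb, without GC correction, as black lines. Cyp26b1 lay below its neighbours in all 7 knockout lines, Dhrs3 above them in the LIFR KO clones, and Rarg close to them in LIFR KO clone 1.

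Of the 33 other list genes tested, 4 passed the threshold in LIFR KO, where 6.47% of all genes did. Nrip1, a cofactor that represses retinoic acid receptors, was at 121, 118 and 113 CPM in LIFR KO and at 70.1 to 83.4 CPM in shPCBP1, and was the 1 of the 4 that was higher. Dgat1, Rbp2 and Rxra were lower. None of the 33 passed after GC correction, but only 44 of all 12603 genes tested did so then. Rxra was at 22.2, 14.1 and 19.98 CPM in clones 1 to 3 against 25.6 to 31.4 CPM in shPCBP1. Rara was at 81.0, 37.1 and 45.8 CPM against 77.0 to 90.6 CPM, and Rxrb at 47.5, 25.1 and 18.5 CPM against 40.9 to 50.6 CPM. For Rara and Rxrb, clone 1 was within the shPCBP1 range and the low values were those of clones 2 and 3, the libraries with the GC shift. Fabp5 was at 33.5, 41.0 and 49.4 CPM in LIFR KO.

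Before GC correction the single double KO line had Cyp26b1 at 26.4 CPM, within 1 CPM of LIFR KO clone 1, whose library did not carry the GC shift. Rarg was at 15.9 CPM, inside the LIFR KO range. Aldh1a1 at 146 CPM and Rdh10 at 60.5 CPM were inside the range of the shPCBP1 lines. Dhrs3, also at 15.9 CPM, was above the shPCBP1 lines and just below the LIFR KO clones. With 1 sample and a library that carried the GC shift, no test was made. After GC correction the double KO line differed from the shPCBP1 mean by log2 values of -0.69 for Cyp26b1, -0.05 for Rarg and 0.96 for Dhrs3. Aldh1a1 was at -0.02 and Rdh10 at 0.03. On that scale Cyp26b1 of the double KO line was above all LIFR KO clones and inside the FAM3C KO range. Rarg was just above all LIFR KO clones. The nearest LIFR KO clone was clone 3 for both genes, at -0.84 for Cyp26b1 and -0.07 for Rarg.

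Ratios of a pair of genes within a library do not depend on its scaling, and those of transcripts of enzymes with opposed roles were taken after their values had been seen. The ratio of Rdh10 to Dhrs3, transcripts of the enzymes that make and remove retinaldehyde, was 0.50 and 0.534 in NMuMG and 6.63 and 6.46 in shPCBP1 of dataset 2. In dataset 1 it was 4.76 to 6.43 in the shPCBP1 lines, 4.26 to 4.46 in FAM3C KO, 1.17, 1.94 and 3.66 in LIFR KO clones 1 to 3 and 3.81 in the double KO. Both KO groups were below every shPCBP1 line, with a wider spread in LIFR KO. How many other pairs of genes separate in this way was not computed, so the lower values are only a description. In FAM3C KO neither Rdh10 nor Dhrs3 passed the threshold by itself. After GC correction the values were 4.86, 4.46 and 4.49 in FAM3C KO clones 1 to 3 and 1.26, 1.57 and 2.96 in LIFR KO. The double KO value was then 3.15, against 5.26 to 7.03 in the shPCBP1 lines. The ratio of Cyp26b1 to Aldh1a1, the transcript of the clearing enzyme over that of the synthesizing one, was 0.0554 and 0.0534 in NMuMG and 0.442 and 0.475 in shPCBP1 of dataset 2. It was 0.416 to 0.487 in the shPCBP1 lines of dataset 1, 0.413, 0.205 and 0.374 in FAM3C KO clones, 0.0912, 0.0609 and 0.107 in LIFR KO clones and 0.181 in the double KO. After GC correction it was 0.0791, 0.0906 and 0.157 in LIFR KO and 0.245 in the double KO, against 0.346 to 0.417 in the shPCBP1 lines. Cyp26b1 was chosen for its low LIFR KO values, and Aldh1a1 was higher in these clones, with its neighbours in clones 1 and 2. The low LIFR KO values of this ratio are thus only a description, and the part of each gene in them was not tested.

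**Figure D4:**
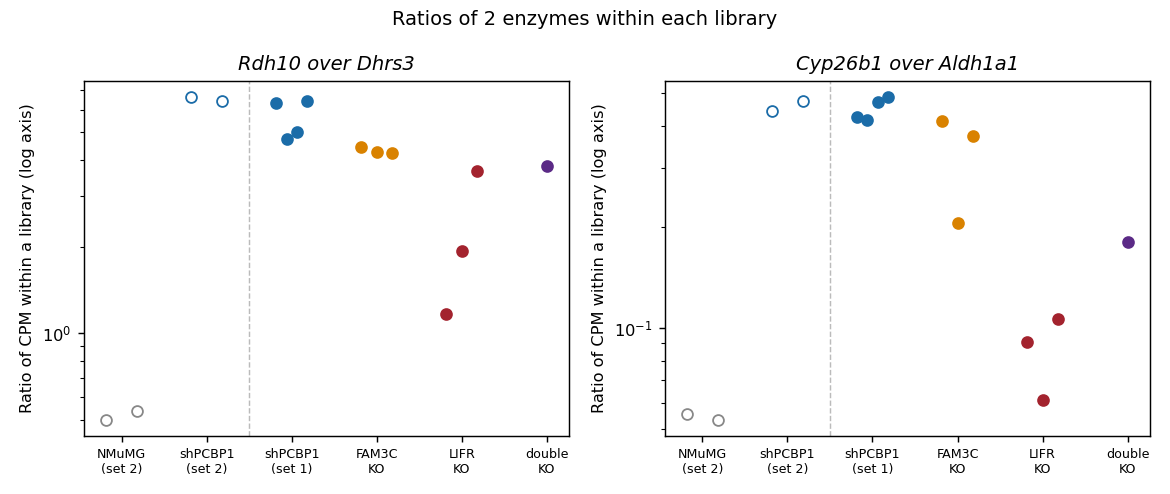
Ratio of CPM of Rdh10 to Dhrs3 and of Cyp26b1 to Aldh1a1 within each library (log axes), by group, with dataset 2 as open points left of the dashed line. The shPCBP1 libraries of both datasets lay between 4.76 and 6.63 for the first ratio and between 0.416 and 0.487 for the second.

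In the shPCBP1 lines of dataset 1 the order by level per length was Aldh1a1 (64.5 CPM per kb), Rdh10 (17.5), Cyp26b1 (15.2), Rarg (9.89) and Dhrs3 (4.83), the same order as in shPCBP1 of dataset 2, although levels are not comparable between the datasets. Only Rdh10 and Cyp26b1 overlapped as neighbours among these 5. In LIFR KO the order was Aldh1a1 (114), Rdh10 (11.7), Dhrs3 (8.57), Rarg (5.21) and Cyp26b1 (5.01), and each neighbouring pair from Rdh10 to Cyp26b1 overlapped. In FAM3C KO Rarg (10.9) stood above Cyp26b1 (8.76), and Rdh10 (12.8) overlapped with Rarg.

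The 5 genes whose log2 values were most like those of Cyp26b1 over the 11 libraries of dataset 1, among 12621 genes, were Orai2 (Pearson r = 0.941), Txnl4b (0.940), Cerk (0.936), Hoxc5 (0.935) and Tmem43 (0.93). These correlations describe libraries that fall into groups and share the GC shift, and no test was made. Orai2, a calcium channel subunit, averaged 48.0 CPM in shPCBP1, 35.4 in FAM3C KO and 30.6 in LIFR KO, and was at 26.6 CPM in the double KO. Cerk, the ceramide kinase, averaged 46.7, 35.8 and 25.8 CPM in those groups and was at 25.3 CPM in the double KO. Hoxc5 was lowest of them, at 2.16 CPM on average in shPCBP1 and 0.175 CPM in FAM3C KO and 0.0603 CPM in LIFR KO. In dataset 2 the log2 fold change between NMuMG and shPCBP1 was 0.71 for Cerk, 0.41 for Txnl4b, 0.40 for Tmem43 and -0.29 for Orai2, so Orai2 did not share the rise of Cyp26b1 there.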

How the data were processed

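The methods describe rRNA-depleted, directional RNA-Seq libraries with paired-end reads of 150 bp. The study's text calls dataset 2 preexisting, and the methods do not say whether its libraries were made in this way. Per the methods and the labels, reads were trimmed, aligned to GRCm38 with Bowtie2 and counted on annotated genes in Partek Flow, and the authors deposited CPM for each library, in which a small number stands for no reads. In dataset 2 the authors also deposited group means and a fold change, which were not used. Gene starts of dataset 2 equalled those of GENCODE M21 for 14269 of 14795 genes and those of dataset 1 for 302 of 13870, so coordinates are from GENCODE M21, and neighbours were found by the positions in the dataset 1 table. CPM could not be turned back into whole reads, so no count test was run.

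Values were taken as log2(CPM + 0.1), which understates the change of low genes. Genes averaging 0.5 CPM or more (12621 in dataset 1 without the double KO line, 11384 in dataset 2) were fitted with limma 3.58.1 (R 4.3.3, mean-variance trend, Benjamini-Hochberg over all genes tested, threshold 0.07). The shPCBP1, FAM3C KO and LIFR KO lines were fitted together, and the double KO line was only described. Exact permutation tests were run on single genes. The correction for GC content subtracted a loess curve (span 0.3) of each library's deviation. Alternatives were median-ratio rescaling, a pseudocount of 1 CPM, other filters (none, or 1 CPM), an adjusted p under 0.05, a fold change of at least 1.5, groups fitted alone, GC correction, the replicate number as a block, and leaving out each line. The procedure was tested on simulated data, where 173 of 193 genes with a log2 change of 2 were found in FAM3C KO against shPCBP1 (12573 genes, 11 false) and 190 of 193 in dataset 2 (11212 genes, 3 false). That change is larger than those of the members and list genes tested in FAM3C KO. How often changes of their size would be found was not tested.

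Members, gene lists and tests were chosen with earlier results of these data known. The genes named were the 9 members, Rara, Rxra, Rxrb, Fabp5 and Crabp1, list genes past the threshold in FAM3C KO, the 4 list genes with the largest change in dataset 2 that passed and reached 1 CPM, the 5 genes most like Cyp26b1, and the targeted genes. Rbp4, Cyp26a1, Aldh1a7, Nrip1, the ratios, list genes at an unadjusted p under 0.05 in FAM3C KO and the members of small counts were added after their values were seen. Some genes that the rule or the lists hold are not reported here. Sequences are from RefSeq, where windows for 6 of the 9 genes were found. Plots were made in Python 3.11.15 with matplotlib 3.10.9.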

Additional observations from a re-analysis of the deposited data

Results flagged for a closer look

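Rarg lay on opposite sides of the shPCBP1 mean in the knockouts. Its log2 change was 0.16 in FAM3C KO, where all 3 clones were above that mean but inside the range of the lines (limma adjusted p = 0.907), and -0.96 in LIFR KO, where all 3 clones were below it. The difference between the knockouts was not tested, both share the shPCBP1 lines, and after GC correction the LIFR KO value was -0.35. In the group of 4 shPCBP1 lines, no member passed Dixon's test for a stray line on the log2 scale, although Crabp2 was at 0.515 CPM in CT clone 3 and 0.081 to 0.250 CPM in the others.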

How the results depend on the processing

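In dataset 2 the 5 tested genes passed under each alternative, and 8 passed with no filter on low values, since Aldh1a2, Aldh1a3 and Crabp2 then entered. In FAM3C KO the count of 0 became 1 (Cyp26b1) after median-ratio rescaling, after GC correction and with both groups fitted alone. The LIFR KO log2 difference of Cyp26b1 was -1.08 after GC correction and -1.14 with the replicate block and GC correction, and lay between -1.70 and -1.47 when a line was left out. The other pathway genes past the threshold in LIFR KO went from 4 to 0 after GC correction and to 2 after median-ratio rescaling. For these shifts the cause was not tested beyond the setting itself. Over all genes, leaving out 1 line moved the LIFR KO calls from 816 to between 5 and 7232, and the FAM3C KO calls from 39 to between 3 and 27, against 1040 with both groups fitted alone, 237 after GC correction and 21 under the filter at 1 CPM. LIFR KO calls were 44 after GC correction and 489 after median-ratio rescaling. With the replicate number as a replicate block, 5 genes passed in dataset 2 and 0 in FAM3C KO, and the log2 difference of Cyp26b1 in LIFR KO was -1.64. Same-numbered clones did not deviate together (correlations of -0.19 to 0.04 in dataset 1 and 0.05 in dataset 2), so the numbers do not pair the samples. Over all genes, the block moved the calls to 15 in FAM3C KO and 10 in LIFR KO.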
